A study of Mus musculus with 6 samples.

Results

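Cholesterol is made in cells from acetyl units by a long chain of enzymes, and 8 genes of that chain were followed here in neurons of mouse dorsal root ganglia after a sciatic nerve crush. The 8 genes were chosen by name: Hmgcs1, Idi1, Fdps, Fdft1, Sqle, Lss, Hsd17b7 and Dhcr7. Of the 8, 6 had expression values, which came from 34 of the 60744 isoforms in the authors' table and from 6 of its 17022 gene names. Hmgcs1, the enzyme that makes HMG-CoA, and Idi1, the isomerase that makes dimethylallyl diphosphate, are not analysed here.

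Dorsal root ganglia lie along the spinal cord and contain the somata of sensory neurons. The animals were C57Bl/6 males, adult per the labels, with an age of 4 to 6 weeks. In the crush group the sciatic nerve was crushed for 10 seconds, and in the sham group the nerve was only exposed for 10 seconds. After 7 days the ganglia of lumbar levels 3, 4 and 5 on the operated side were frozen, and neurons were cut out by laser microdissection. Each group had 3 libraries of polyadenylated RNA, called crush 1 to 3 and sham 1 to 3, and whether these came from separate animals is not given in the sources used here, so each p-value reflects the spread among libraries alone, and this could be technical. Expression was given as FPKM, in which the authors scaled the fragments of each isoform for its length and for the mapped fragments of the library. FPKM values were summed over the isoforms of a gene, and sequencing depth is unknown.

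The pathway runs from HMG-CoA through mevalonate to the branched building blocks that Fdps joins into farnesyl diphosphate, which also serves protein prenylation, dolichol and ubiquinone. Fdft1 commits farnesyl diphosphate to sterols by making squalene, Sqle and Lss turn squalene into lanosterol, and a set of later enzymes, Hsd17b7 and Dhcr7 among them, trims lanosterol to cholesterol. The transcription factor SREBP-2 is known to raise most of these genes together when membranes are short of sterol, and growing axons need cholesterol for new membrane.

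Of the 6 measured enzymes, 1 rose after crush, Hsd17b7, 0 fell, and 5 did not pass the test (limma on log2(FPKM + 1), Benjamini-Hochberg adjusted p under 0.05 over all 12289 genes tested). Over all genes tested, 3.78% were called, 2.38% higher and 1.39% lower. The median log2 change of the 6 enzymes was 0.08, beside -0.02 for all genes. The libraries of the groups did not overlap for 2 of the 6, Sqle and Hsd17b7, both with every crush library above every sham library, a pattern that 12.2% of all genes showed, while 26.3% of genes did not overlap in either direction. The summed level of the 6 genes was 315.3, 308.8 and 355.5 FPKM in the crush libraries, against 303.3, 354.1 and 284.2 FPKM in the sham libraries, so the groups overlapped.

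Hsd17b7 encodes a reductase that acts on the 3-keto group left at each removal of a methyl from carbon 4 of the sterol ring, and in mammals it also reduces estrone. Its level was 21.4, 19.8 and 24.4 FPKM in the crush libraries, against 12.5, 7.58 and 11.6 FPKM in the sham libraries. All crush libraries lay above all sham libraries, and sham 2 was the lowest. The mean was 21.9 ± 2.32 FPKM after crush and 10.6 ± 2.61 FPKM after sham surgery (SD, n = 3 per group here and below), a ratio of 2.07. The log2 change was 1.01 (95% interval 0.58 to 1.43, limma adjusted p = 0.0333), the gene's rank by rise being 70 among the 12289 genes tested. Leaving out 1 library ended the call for 5 of the 6 libraries, with limma adjusted p of 0.127, 0.101 and 0.141 without crush 1, crush 2 and crush 3, of 0.0554 and 0.0948 without sham 1 and sham 3, and of 0.00449 without sham 2. With only isoforms that carry a reference identifier the adjusted p was 0.0759 (log2 change 1.0). In the mm9 build the gene's exons lie on chromosome 1 from 171879664 to 171899707 on the minus strand.

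**Figure D1:**
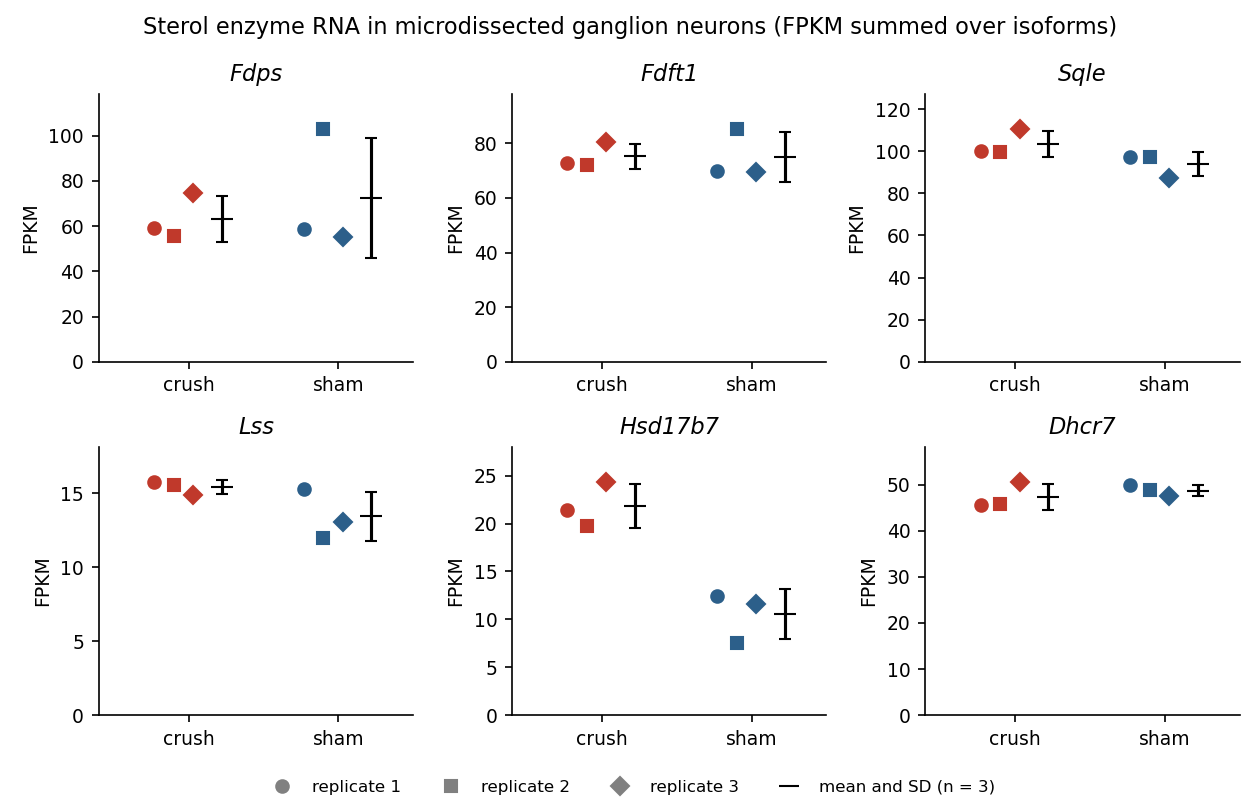
FPKM summed over isoforms (vertical axis, from 0) for the 6 measured enzymes, with crush libraries in red left of sham libraries in blue, 1 point per library and the mean with its SD (n = 3) beside the points. Hsd17b7 shows crush libraries at 19.8 to 24.4 FPKM above sham libraries at 7.58 to 12.5 FPKM, and Fdps shows sham 2 alone at 103.2 FPKM.

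Other cell types can be cut out with a neuron, and their markers were read beside this result. Of the 10 macrophage markers tested, 9 rose and 0 fell, with a median log2 change of 0.95. The 12 macrophage markers with values summed to 144.8 to 159.7 FPKM in crush libraries and 66.8 to 78.9 FPKM in sham libraries, none was at 0 in any library, and the most abundant were Lyz2, a lysozyme (46.9 ± 3.20 FPKM after crush and 25.6 ± 2.01 FPKM after sham surgery), and C1qa, a complement subunit (27.3 ± 2.06 and 13.0 ± 2.44 FPKM in the same order). All 10 tested markers had every crush library above every sham library, as had Hsd17b7 and 12.2% of all genes tested. The part of macrophage RNA in the rise of Hsd17b7 was not tested. Of 7 fibroblast markers tested 0 passed (median log2 change 0.40), but 5 had every crush library above every sham library. The 8 fibroblast markers with values summed to 181.7 to 193.7 FPKM in crush libraries and 118.1 to 158.4 FPKM in sham libraries, led by Dcn, a matrix proteoglycan, and Col1a2, a collagen chain. Of 15 markers of Schwann and satellite glia tested 0 passed (median log2 change 0.15). Every crush library lay above every sham library for 5 of them and below for 1. They summed to 1732 to 1885 FPKM in crush libraries and 1719 to 1976 FPKM in sham libraries, with Pmp22 and S100b as the most abundant. Of 7 endothelial markers, led by Egfl7 and Esam, 0 passed (summing to 43.6 to 49.0 FPKM in crush libraries and 44.6 to 57.6 FPKM in sham libraries).

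The 13 neuronal markers with values had the largest sum of the cell type lists. It was 7033 to 8058 FPKM in crush libraries and 7336 to 9256 FPKM in sham libraries, with the tubulin Tubb3 and the ubiquitin hydrolase Uchl1 on top. The lists hold unlike genes, so their sums do not give the share of each cell type. The glial marker Pmp22 (430.4 FPKM after crush and 388.6 FPKM after sham surgery) was below some neuronal markers and above others, such as Rbfox3 (63.9 and 77.5 FPKM in the same order). Of the 13 neuronal markers tested, 0 rose and 2 fell, the neurofilament genes Nefm and Nefh (median log2 change -0.14). Every crush library lay below every sham library for 5 of them, as for 14.1% of all genes tested, and above for 0. In bulk RNA of this kind, a change in the number of cells of a type cannot be told apart from a change in RNA per cell. The injury genes used to check the labels separated the groups: Npy, a neuropeptide, averaged 218.6 ± 50.6 FPKM after crush and 22.0 ± 6.14 FPKM after sham surgery, and Atf3 and Gal were also called higher. Across the genes tested sham 2 was the least like its group, with r of 0.978 and 0.981 to the other sham libraries, against 0.996 between those.

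The enzymes that stand before the sterol ring is closed did not pass the test. Fdps, which makes farnesyl diphosphate, had 59.4, 55.7 and 74.5 FPKM in the crush libraries, against 58.9, 103.2 and 55.2 FPKM in the sham libraries. Sham 2 stood far above every other library and the rest of the groups overlapped. The log2 change was -0.15 (95% interval -0.73 to 0.43, limma adjusted p = 0.816), and 0.13 without sham 2.

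Fdft1, squalene synthase, had 72.9, 72.1 and 80.4 FPKM in the crush libraries, against 69.6, 85.4 and 69.4 FPKM in the sham libraries. Sham 2 was again the highest library and the groups overlapped. The log2 change was 0.01 (95% interval -0.23 to 0.25, limma adjusted p = 0.971). Of the exon bases of Fdft1, 39.8% were shared with Ctsb, a lysosomal protease gene on the opposite strand, which was at 945.1 ± 43.4 FPKM after crush and 834.5 ± 55.2 FPKM after sham surgery. The protocol names no strand-specific step, so reads of the shared stretch cannot be told apart, and the level of Fdft1 is uncertain.

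Sqle, squalene epoxidase, which adds oxygen to squalene, had the highest mean of the 6 in both groups. It had 100.2, 99.8 and 110.7 FPKM in the crush libraries, against 97.1, 97.2 and 87.3 FPKM in the sham libraries. All crush libraries lay above all sham libraries, by a small margin. The means were 103.6 ± 6.21 FPKM after crush and 93.9 ± 5.68 FPKM after sham surgery, and the log2 change of 0.14 did not pass (95% interval -0.05 to 0.33, limma adjusted p = 0.428). Of its exon bases, 37.1% were shared with E430025E21Rik, a gene at 8.03 ± 0.125 FPKM after crush and 8.45 ± 0.421 FPKM after sham surgery.

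Lss, lanosterol synthase, closes the rings of the sterol. It had 15.8, 15.6 and 14.9 FPKM in the crush libraries, against 15.3, 12.0 and 13.1 FPKM in the sham libraries. Sham 1 lay among the crush libraries and the other sham libraries lay below them. The log2 change was 0.19 (95% interval -0.03 to 0.41, limma adjusted p = 0.359).

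Dhcr7, the reductase of the last or next to last step, had 45.6, 45.9 and 50.6 FPKM in the crush libraries, against 49.9, 48.7 and 47.5 FPKM in the sham libraries. The highest and the lowest libraries were both crush libraries, so the groups overlapped. The log2 change was -0.04 with the narrowest interval of the 6 enzymes (95% interval -0.20 to 0.12, limma adjusted p = 0.819). A change of the size seen for Hsd17b7 lay outside the intervals of all 5 other enzymes.

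FPKM is scaled for transcript length, so the levels of the enzymes can be ordered within a group, but only roughly. The sums depend on the assembled isoforms, and a short isoform of 588 bases, Fdps_j2, held 73.1% of the FPKM of Fdps. The level of Fdft1 is uncertain because of the exons shared with Ctsb. The places of Fdft1 and Fdps in the order are therefore uncertain. After crush the order of mean levels was Sqle, Fdft1, Fdps, Dhcr7, Hsd17b7 and Lss, and only the ranges of Fdft1 and Fdps overlapped between neighbours. After sham surgery the order began alike, with Fdft1 and Fdps again overlapping, and ended with Lss and then Hsd17b7, whose ranges overlapped. The sham range of Fdps also overlapped that of Sqle, and in sham 2 Fdps (103.2 FPKM) was above Sqle (97.2 FPKM). Hsd17b7 was above Lss in each crush library and below Lss in each sham library.

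Hsd17b7 was also read as a share of other sterol enzymes in the same library, since such a share does not depend on how a library was scaled. It came to 7.29%, 6.84% and 7.36% of the summed FPKM of the other 5 measured enzymes in the crush libraries, against 4.29%, 2.19% and 4.26% in the sham libraries. The groups did not overlap, and the exact 2-sided permutation test gave p = 0.1, the smallest that 3 libraries against 3 allow. Hsd17b7 was the enzyme called and its FPKM had already separated the groups. These shares reuse its values and are therefore no separate support. The low share in sham 2 also reflects the high Fdps value of that library, 103.2 FPKM. Nsdhl and Sc4mol, the dehydrogenase and the oxidase that work with Hsd17b7 in the removal of methyl groups from carbon 4, were chosen as further denominators after values were seen. As a percentage of Nsdhl, Hsd17b7 was at 45.5%, 43.8% and 46.0% in the crush libraries, against 27.1%, 17.0% and 27.7% in the sham libraries. As a percentage of Sc4mol it was at 21.4%, 20.7% and 22.4% in the crush libraries, against 11.6%, 6.72% and 12.3% in the sham libraries. Neither comparison overlapped, with an exact permutation p of 0.1 each, and both reuse the same Hsd17b7 values.

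**Figure D2:**
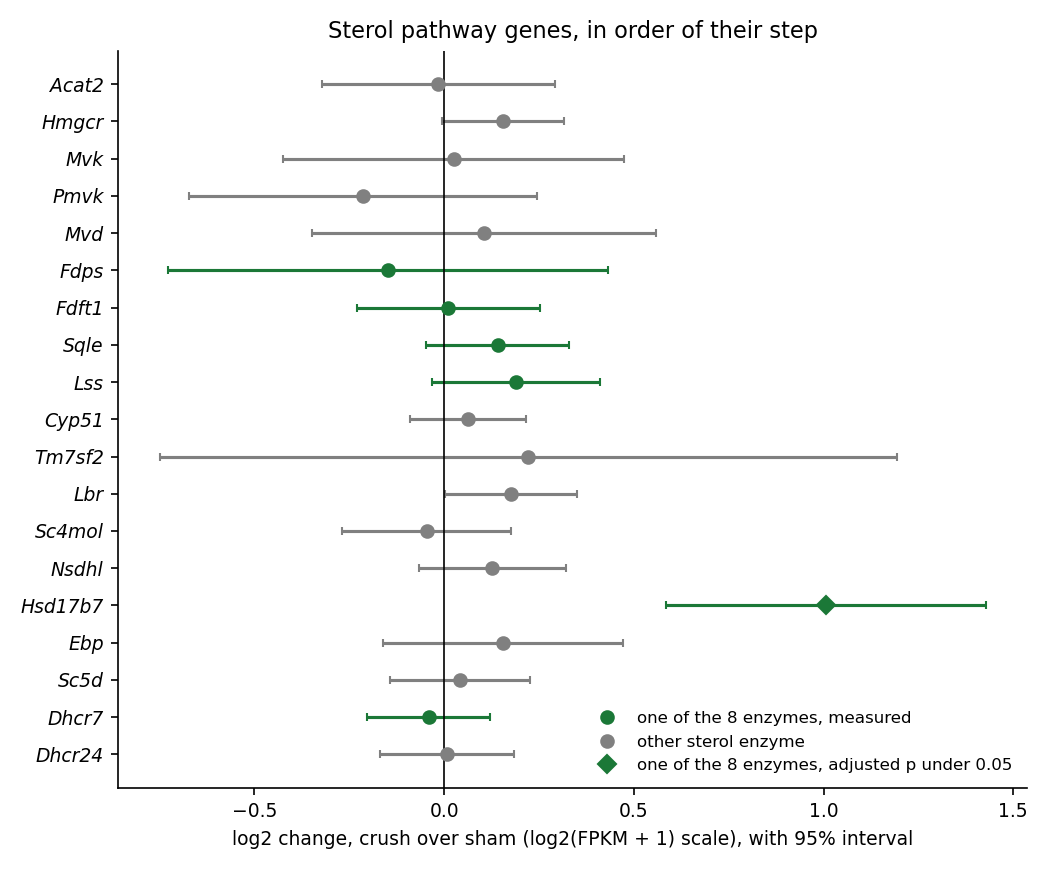
Log2 change, crush over sham on the log2(FPKM + 1) scale, of the 19 sterol pathway genes tested, in the order of their steps from top to bottom, with 95% intervals from limma, in green for the 6 measured enzymes and in grey for the other 13. Hsd17b7, the diamond at 1.01, is the single gene called.

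The other genes of sterol synthesis were read from a list of 14 enzymes, of which 13 had values and were tested. Of these 13, 0 passed the test, with log2 changes of -0.21 to 0.22, a median of 0.06 and limma adjusted p of 0.281 to 0.977. The smallest adjusted p belonged to Lbr, a sterol reductase that is also the lamin B receptor, at 4.54 ± 0.237 FPKM after crush and 3.90 ± 0.219 FPKM after sham surgery (log2 change 0.18). Nsdhl averaged 48.4 ± 4.07 FPKM after crush and 44.2 ± 2.08 FPKM after sham surgery (log2 change 0.13, limma adjusted p = 0.488), and Sc4mol averaged 101.4 ± 6.65 and 104.9 ± 9.72 FPKM in the same order (log2 change -0.05, adjusted p = 0.854). Together with the 6 enzymes above, 19 sterol pathway genes were tested, of which 1 was called higher, 0 lower and 18 in neither direction.

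Genes that branch from the pathway or set its pace gave no calls. Of 12 tested genes of the branches to protein prenylation, dolichol and ubiquinone, 0 passed (median log2 change -0.09). Of these 12, 5 had every crush library below every sham library, as had 14.1% of all genes tested. Dhdds, a subunit of the enzyme that makes dolichol chains, had the smallest adjusted p, with 27.4 ± 0.876 FPKM after crush and 32.3 ± 1.80 FPKM after sham surgery (log2 change -0.23, limma adjusted p = 0.135). Of 9 tested genes of SREBP control, 0 passed (median log2 change -0.01). Srebf2, which encodes SREBP-2, was at 54.9 ± 0.649 FPKM after crush and 55.7 ± 1.38 FPKM after sham surgery (limma adjusted p = 0.911), and was named after its values were seen.

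Among 14 tested genes of sterol uptake and transport, 0 passed (median log2 change -0.0025). Of 10 tested genes of sterol efflux, storage and breakdown, 1 rose and 0 fell, with a median log2 change of 0.01. The gene that rose was Abca1, the transporter that hands cellular cholesterol to apolipoproteins, with 32.0, 28.3 and 29.1 FPKM in the crush libraries, against 14.8, 8.78 and 14.3 FPKM in the sham libraries. As for Hsd17b7, the groups were far apart and sham 2 was the lowest. The means were 29.8 ± 1.94 FPKM after crush and 12.6 ± 3.36 FPKM after sham surgery, and the log2 change was 1.21 (95% interval 0.77 to 1.64, limma adjusted p = 0.0220). Without 1 library the limma adjusted p was 0.106, 0.0854 and 0.0906 for crush 1, crush 2 and crush 3, 0.0445, 0.00137 and 0.0680 for sham 1, sham 2 and sham 3, and with reference isoforms only it was 0.338. The macrophage markers given above moved with Abca1 too, and their part in it was not tested.

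Fatty acid synthesis, which shares control by SREBP proteins with the sterol pathway, had 14 genes tested, of which 0 rose and 1 fell (median log2 change 0.04). The gene that fell was Thrsp, a regulator of lipid synthesis, with 5.28, 4.36 and 4.73 FPKM in the crush libraries, against 8.4, 11.3 and 10.6 FPKM in the sham libraries. All crush libraries lay below all sham libraries. The log2 change was -0.93 (limma adjusted p = 0.0136), and without 1 library the adjusted p was 0.0656, 0.0678 and 0.0632 for crush 1, crush 2 and crush 3 and 0.0184, 0.00670 and 0.0686 for sham 1, sham 2 and sham 3.

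**Figure D3:**
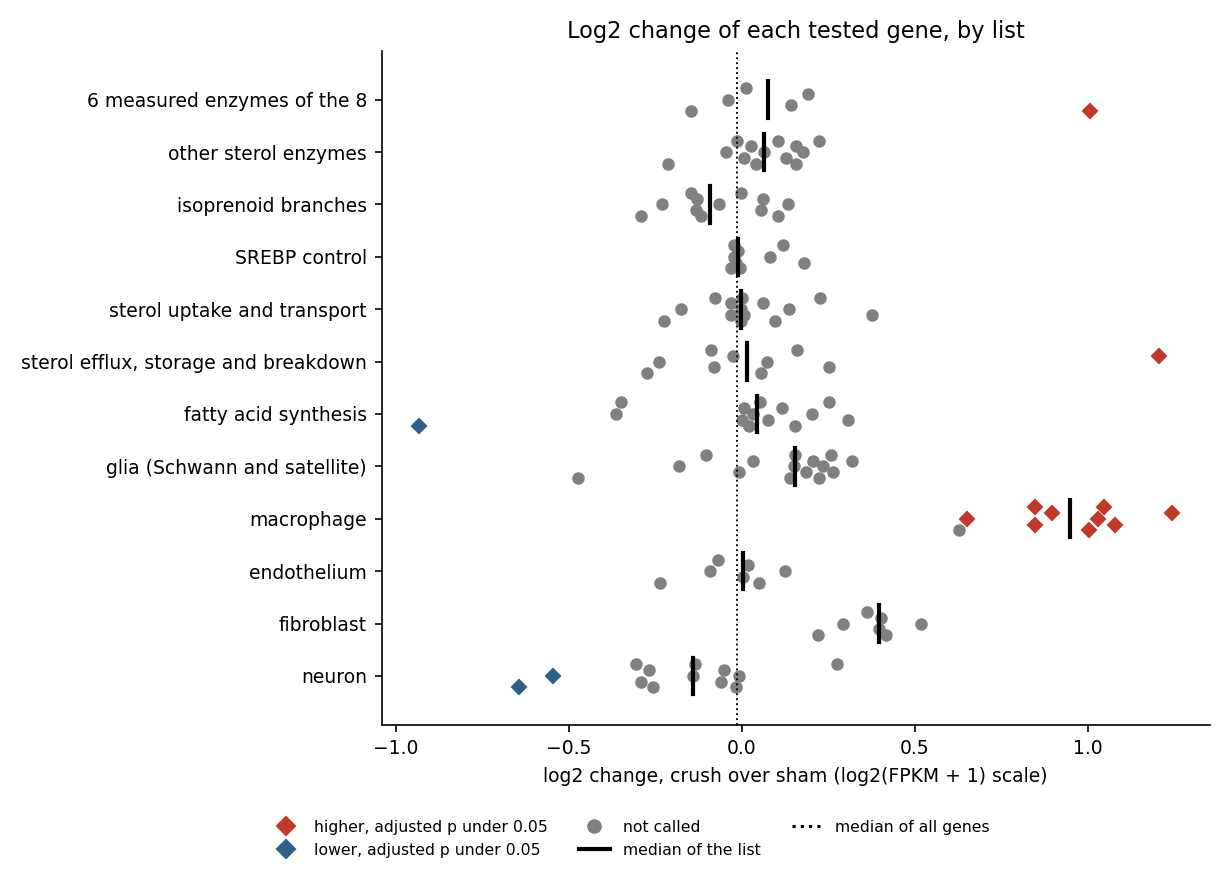
Log2 change, crush over sham on the log2(FPKM + 1) scale (horizontal axis), of each tested gene in the 6 measured enzymes, 6 lists of related pathways and 5 lists of cell type markers, with a bar at the median of each list and a dotted line at the median of all genes (-0.02). Hsd17b7, Abca1 and Thrsp are the called genes outside the marker lists, and 9 of 10 macrophage markers are called higher.

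The isoforms were tested singly, over the 24485 whose mean reached 1 FPKM, of which 0.0613% were called. Of the 34 isoforms of the 6 enzymes, 19 were tested and 0 were called (limma), with 2 at an unadjusted p under 0.05, which 9.12% of all tested isoforms reached, and a smallest adjusted p of 0.161. Names with a suffix of j and a number are isoforms assembled by the authors, and a name without one carries a reference identifier.

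The isoform with the smallest adjusted p was the reference isoform of Hsd17b7, 4938 bases long in 9 exons, which held 77.8% of the gene's FPKM. It had 16.8, 15.5 and 18.9 FPKM in the crush libraries, against 9.47, 5.95 and 9.01 FPKM in the sham libraries (log2 change 1.0, limma adjusted p = 0.161). The assembled isoform Hsd17b7_j2, of 4489 bases, had 4.46, 4.15 and 5.20 FPKM in the crush libraries, against 3.01, 1.28 and 2.58 FPKM in the sham libraries (log2 change 0.80, limma adjusted p = 0.351). Both isoforms lay higher in every crush library than in any sham library, a pattern whose share among all tested isoforms was not counted. Exon bases shared with other genes came to 3.50% for Hsd17b7, and the genes concerned, AK014032 and AK014177, averaged under 1 FPKM in both groups.

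Fdps was the enzyme with most isoforms, of which Fdps_j2, a short isoform of 588 bases in 3 exons, held 73.1% of its FPKM. Fdps_j2 had 42.4, 38.7 and 57.1 FPKM in the crush libraries, against 39.7, 81.6 and 38.2 FPKM in the sham libraries (limma adjusted p = 0.943). The high value of Fdps in sham 2 was thus mainly a high value of this isoform. Fdps_j15, of 1088 bases, had 7.33, 7.5 and 7.65 FPKM in the crush libraries, against 9.10, 9.10 and 7.79 FPKM in the sham libraries (limma adjusted p = 0.659). Every crush library lay below every sham library, and how common this is among all tested isoforms was not counted. The authors marked Fdps_j15 as low data in every library. Fdps_j10, Fdps_j13 and Fdps_j4 had group means of 1.19 to 4.64 FPKM and overlapped.

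Fdft1 had 84.1% of its FPKM in Fdft1_j3, with 53.9, 57.8 and 69.9 FPKM in the crush libraries, against 56.6, 84.2 and 55.6 FPKM in the sham libraries (limma adjusted p = 0.934). Fdft1_j4, of whose bases 96.8% were shared with Ctsb, was listed at 16.7, 12.3 and 8.80 FPKM in the crush libraries, against 11, 0 and 12.1 FPKM in the sham libraries (limma adjusted p = 0.814). The value of 0 was that of sham 2, where Fdft1_j3 was highest. Fdft1_j2 averaged 1.52 ± 0.225 FPKM after crush and 1.29 ± 0.303 FPKM after sham surgery.

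The FPKM of Lss was divided among its isoforms with none above 50% of the gene in any library. Its reference isoform had 4.45, 3.22 and 6.45 FPKM in the crush libraries, against 5.35, 1.35 and 4.40 FPKM in the sham libraries. Lss_j2 varied most, at 0.423, 1.38 and 0.000467 FPKM in the crush libraries, against 0.00143, 2.92 and 1.86 FPKM in the sham libraries. Both overlapped widely between the groups, as did Lss_j5, Lss_j3 and Lss_j6, with limma adjusted p of 0.821 to 0.878 over the 5 tested isoforms.

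Dhcr7 had 77.3% of its FPKM in Dhcr7_j5, with 34.4, 35.4 and 39.0 FPKM in the crush libraries, against 37.9, 41.2 and 35 FPKM in the sham libraries. Dhcr7_j2 averaged 7.91 ± 0.814 FPKM after crush and 7.34 ± 1.18 FPKM after sham surgery. Dhcr7_j6 was listed at 1.38, 1.04 and 0.976 FPKM in the crush libraries, against 2.63, 0 and 2.89 FPKM in the sham libraries. As for Fdft1_j4, the value of 0 was that of sham 2, and the groups overlapped. Sqle had a single isoform.

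Whether the isoforms of a gene changed unequally was tested with limma's diffSplice over 6746 genes, of which 0.519% were called. The adjusted p was 1.0 for all 5 enzymes with at least 2 tested isoforms. Dhcr7 was called without sham 2 (adjusted p = 0.0285, limma) and with sample weights (0.0324).

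**Figure D4:**
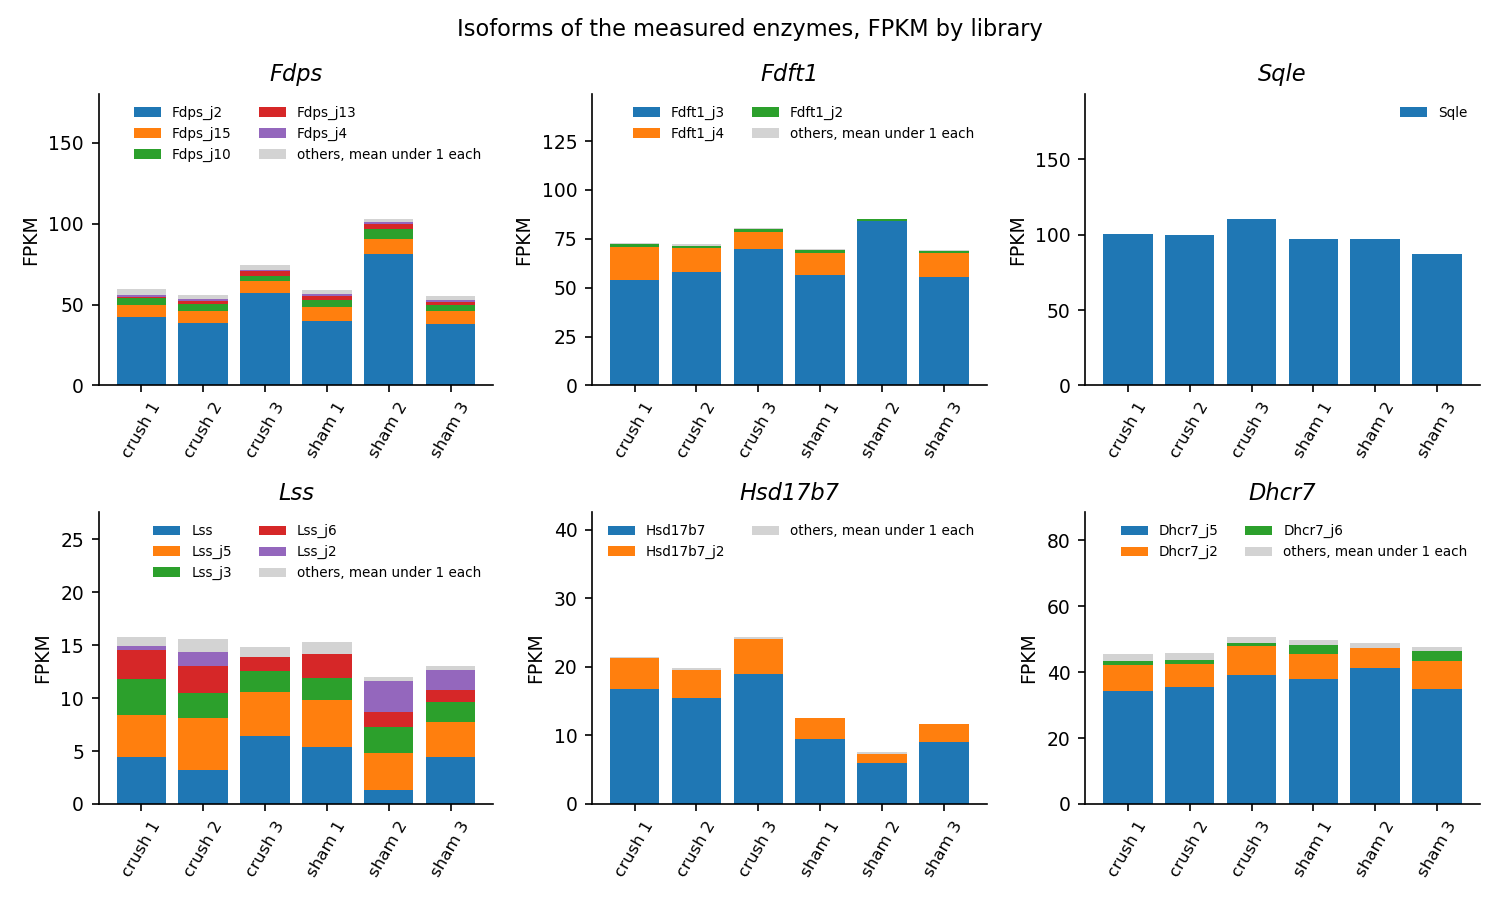
FPKM (vertical axis, from 0) of each library as stacked bars, crush libraries left of sham libraries, with 1 colour per isoform of a mean of at least 1 FPKM and grey for the rest. Fdps_j2 reaches 81.6 FPKM in sham 2, Fdft1_j4 and Dhcr7_j6 are at 0 there, and both main isoforms of Hsd17b7 are taller in crush libraries.

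The authors' deposited table holds a comparison of its own, made per isoform from estimates of each group as a whole. Of the 34 isoforms, 15 in the authors' deposited table, among them all of Fdft1, Sqle, Lss and Hsd17b7, had a comparison marked as failed with a q-value listed as 1, and 45.1% of all isoforms carried that mark. Fdps_j15 was marked as low data and had no comparison. Of the 18 compared there, 2 had a q-value under 0.05 in the authors' deposited table, Fdps_j12 (q = 0.000488) and Dhcr7_j6 (q = 0.0467). The authors' group estimates for these went in opposite directions. Fdps_j12 was higher after crush (0.845 FPKM, against 0 after sham surgery), and Dhcr7_j6 was lower after crush (0.532 FPKM, against 1.64 FPKM). Fdps_j12 was at 1.11, 0.815 and 0.236 FPKM in the crush libraries, and was listed at 0, 0 and 0.00416 FPKM in the sham libraries. The crush libraries were all higher, but at a mean under 1 FPKM, so this isoform was not tested. Summed over isoforms, the group estimates of the authors' deposited table were 21.0 FPKM after crush and 11.9 FPKM after sham surgery for Hsd17b7, a ratio of 1.76. The ratios were 0.977 to 1.17 for the other 5 enzymes. The ratio of 1.17 was that of Fdps, with 71.9 FPKM after crush and 61.6 FPKM after sham surgery. Its direction was opposite to that from the single libraries, where the log2 change of Fdps was -0.15.

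The genes whose pattern over the 6 libraries was most like the mean of the 6 enzymes on the log2(FPKM + 1) scale were the glycolytic enzyme Pgk1 (Pearson r = 0.996), the sphingosine-phosphate receptor S1pr2 (0.995), Tmc5 (0.994), the chemokine Ccl2 (0.989) and the adaptor protein Bcar1 (0.987). The 6 enzymes did not move together, with log2 changes of -0.15 for Fdps to 1.01 for Hsd17b7. Sham 2 differed from the mean of sham 1 and sham 3 by 0.84 log2 units for Fdps and -0.60 for Hsd17b7. Their mean is thus not a pattern that the enzymes share, and the likeness links none of these genes to the pathway. These r values describe 6 libraries that share their preparation, and carry no test. They are the 5 highest among those of the 12289 tested genes that have a gene name, the enzymes left out.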

How the data were processed

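FPKM values per isoform and library were deposited by the authors, made with TopHat 1.3.2, Cufflinks 1.1.0 and Cuffdiff 1.2.1 on build mm9, per the submitters' processing notes. The deposited table also holds the authors' p-values and q-values, and the deposited exon file gave positions, lengths and shared exon bases. Isoform FPKM was summed per gene name. Genes averaging at least 1 FPKM entered limma 3.58.1 (R 4.3.3) on the log2(FPKM + 1) scale (mean-variance trend, 2-sided, Benjamini-Hochberg over all genes tested), a scale that understates changes of low genes. The tests were checked on simulated data with equal noise in every gene and library. The libraries here were unequal, so that check does not give error rates for these data. Groups came from the labels, 3 libraries each, and the barcoded libraries were mixed over 3 lanes. FPKM keeps no read counts, so no counting interval was computed.

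The enzymes, lists, tests and naming rule were chosen with earlier results of these data known. Named are the enzymes and their isoforms of at least 1 FPKM, called genes of each pathway list (at most 3 each way) or the smallest adjusted p, the 2 most abundant markers per cell type, Atf3, Gal and Npy, and the 5 genes most alike. Nefm, Nefh, Nsdhl, Sc4mol, Srebf2, genes sharing exons and Fdps_j12 were added after values were seen. Some genes that this rule names are not reported here.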

Additional observations from a re-analysis of the deposited data

How the results depend on the processing

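Hsd17b7 kept its direction in all 16 alternatives, with log2 changes of 0.79 to 1.13 and limma adjusted p of 0.00293 to 0.141, and was called in 9. Abca1 (0.98 to 1.33) was called in 10 and Thrsp (-1.05 to -0.80) in 11. Genes called numbered 464 (63.1% of them higher), against 295 with a mean of at least 5 FPKM, 67 with reference isoforms only (77.6% higher), 1429 with sample weights (51.4% higher), 50 with a replicate block (90.0% higher) and 53 to 1174 without 1 library (53, 82 and 99 without crush 1, crush 2 and crush 3, and 119, 1174 and 75 without sham 1, sham 2 and sham 3). Libraries of equal replicate number had correlations of 0.372, -0.309 and -0.486 in their deviations from the group mean. With 3 libraries per group, these values cannot decide whether the replicate numbers pair the libraries. Enzymes called fell to 0 with the replicate block and with reference isoforms only (median log2 change 0.36), and were 0 to 1 without 1 library (median 0.03 to 0.13). The authors' comparison, made per isoform, called a minor isoform in 2 other enzymes. These were Fdps_j12, with 0.53% of the FPKM of Fdps, and Dhcr7_j6, with 3.09% of that of Dhcr7. It could not call Hsd17b7, whose isoforms were all marked there as failed. With sample weights 2 enzyme isoforms were called and isoform use differed in 1 gene. Without 1 library these were 0 to 0 and 0 to 1. Pathway list genes called were 2, against 1 with reference isoforms only, 4 with sample weights, 0 with the replicate block and 0 to 2 without 1 library. Directions turned for Dhcr7 (0.0018 with upper-quartile scaling), Fdps (0.0036 with sample weights), Fdft1 and Sc4mol (0.011 with quantile scaling, 0.069 with reference isoforms only). Without 1 library the log2 change was -0.31 to 0.13 for Fdps, positive without sham 2, and -0.039 to 0.11 for Fdft1, negative without crush 3, sham 1 or sham 3. For Sc4mol it was -0.12 to 0.0082, positive without sham 2. Causes were not tested, and fewer libraries or genes entered some fits.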
